A study of Rattus norvegicus with 192 samples.

Results

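Each of 5 rat genes described here is an annotated copy of a widely expressed parent gene, and each was read at separated levels in different rats. The copies and parents were Rpl30l2 with Rpl30, Rps14-ps7 with Rps14, Prmt1l1 with Prmt1, Ndufa10l1 with Ndufa10, and Eef1a1l1 with Eef1a1. They are 10 of the 38354 genes in the deposited table, and all 10 were among the 15327 with a mean of at least 1 CPM (counts per 1000000 of the library). The 5 copies were selected on measured values, namely the separation of their levels over these same libraries. Levels by class, copy against parent and the spread of their sum are therefore given as descriptions without a test.

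The study sequenced polyA RNA of the core of the nucleus accumbens, in the ventral striatum, from outbred heterogeneous stock rats, a population bred from several inbred founder strains. Of 192 libraries in the labels, all but 33 are in the table, each with a different rat identifier. The 147 with Drd1, the D1 dopamine receptor of medium spiny neurons, at 100 CPM or more were used. In these Drd1 lay between 154 and 441 CPM and Ppp1r1b, another marker of those neurons, between 998 and 2989, which fits the labelled tissue. The 12 libraries left out had Drd1 between 1.61 and 20.0 CPM and served afterwards as libraries that had no part in setting the classes. Their markers go against the labelled tissue: median Th, the enzyme that starts dopamine synthesis, was 1704 CPM in them (2.61 to 2107) and 0.771 in the used ones, and the summed level of 7 midbrain dopamine neuron markers had medians of 4034 and 40.3 CPM. The 12 were not uniform. That midbrain sum lay between 29.6 and 4894 CPM in them, and the sum of 8 cortical projection neuron markers between 62.8 and 2737 CPM.

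No label records a treatment, sex, age or genotype of a rat, and all rats are labelled as outbred. Libraries were grouped by the form of the rat identifier: 56 with an all-digit identifier (numeric), 76 with one starting in E21 (E21), and 12 whose identifier the submitters corrected from genotype to the E21 form (corrected E21). A further 2 libraries starting in AA1 and 1 corrected to another form were used for levels and in no comparison. Totals of expected counts lay between 14.6 and 61.2 M per library, with a median of 22.9 M. With 1 library per rat, differences between rats and differences between preparations cannot be told apart.

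Gene copies of this kind often come from an mRNA that was copied back into DNA and inserted elsewhere in the genome, and such retrocopies usually lack the introns of the parent. Copy and parent can then be nearly identical over the transcript, and a short read from one may match the other. The counting tool named by the submitters shares such reads between the transcripts they match, which leaves expected counts that are not whole numbers. Ribosomal protein genes, translation factors and enzymes with abundant mRNA have left many such copies in mammalian genomes.

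Each copy lies on another chromosome than its parent and is annotated with 1 transcript over a short span. Positions here are in the RefSeq build GRCr8, where every gene of the table with a RefSeq position matched the first or last base of its RefSeq gene. Rpl30l2 spans 482 bases of chromosome 10 (37332379 to 37332860, minus strand), and Rpl30 3136 bases of chromosome 7 (67533420 to 67536555, minus strand). Rps14-ps7, annotated as a transcribed pseudogene, spans 576 bases of chromosome 5 (143634718 to 143635293, plus strand), against 11083 bases for Rps14 on chromosome 18 (56492010 to 56503092, plus strand). Prmt1l1 spans 1262 bases of chromosome 14 (91764602 to 91765863, minus strand), against 10214 for Prmt1 on chromosome 1 (104595339 to 104605552, minus strand). Ndufa10l1 spans 1434 bases of chromosome 6 (65606866 to 65608299, minus strand), against 35526 for Ndufa10 on chromosome 9 (100454498 to 100490023, minus strand). Eef1a1l1 spans 1755 bases of chromosome X (153525380 to 153527134, plus strand), against 3850 for Eef1a1 on chromosome 8 (88221839 to 88225688, minus strand). All but Rps14-ps7 are annotated as protein coding.

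Start-site sequences of RefSeq were at hand for both genes of the Prmt1 and Eef1a1 pairs. They show how far copy and parent are alike around these starts only, and likeness over the whole transcripts was not compared. The windows hold 250 bases before and 50 after the start of a RefSeq transcript. Capitals mark the longest run shared by copy and parent, preceded in lower case by the 40 bases before it.
Prmt1l1: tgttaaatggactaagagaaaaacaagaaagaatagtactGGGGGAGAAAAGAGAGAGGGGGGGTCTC
Prmt1: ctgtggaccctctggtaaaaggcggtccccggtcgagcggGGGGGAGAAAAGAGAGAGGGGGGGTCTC
Eef1a1l1: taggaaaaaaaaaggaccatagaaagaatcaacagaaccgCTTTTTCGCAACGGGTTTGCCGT
Eef1a1: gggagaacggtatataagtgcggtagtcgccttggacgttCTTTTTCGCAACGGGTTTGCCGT
The Prmt1 pair shared a run of 28 bases, printed from chr14:91765840-91765907 for the copy and chr1:104604568-104604635 for the parent, both on the minus strand. It began 4 bases before the start of Prmt1l1 and 50 bases before the start of the Prmt1 transcript in the table. The Eef1a1 pair shared a run of 36 bases, of which the first 23 are shown, from chrX:153525347-153525409 on the plus strand and chr8:88225048-88225110 on the minus strand. It began 1 base before the start of the Eef1a1 transcript and 7 bases after that of Eef1a1l1. Before the runs the likeness stopped: 8 of 40 bases matched in the Prmt1 pair and 11 of 40 in the Eef1a1 pair. Within the 250 bases before both starts the longest shared run was 7 bases in either pair. Over 232 pairs of tested genes matched by symbol alone (one symbol being the other plus l or -ps and a number) that have both windows, the median longest shared run was 9 bases, and 20 pairs, the 2 shown here among them, shared at least 28. That set also holds unrelated genes with like symbols, which bear on its median.

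The expected counts of 4 copies were seldom whole numbers, which is how shared reads appear in such counts. Among values above 0 and under 1000 counts, 0 of 56 for Rpl30l2 lay within 0.01 of a whole number, 1 of 41 for Rps14-ps7 (2.44%), 4 of 145 for Prmt1l1 (2.76%) and 5 of 145 for Ndufa10l1 (3.45%). Eef1a1l1 had 1 value in that range and could not be examined this way. Over the genes tested the median share was 93.9%. The levels of these copies and their parents are therefore uncertain, since they rest on how the counting divided shared reads.

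Levels were classed by gaps: the sorted log2(CPM + 1) values of a copy were split wherever neighbouring libraries lay at least 1 apart and each side kept at least 5% of them. Of the 15327 genes tested, 16 had such a gap (0.104%), and all 5 copies were among them because they had been selected for it. Each copy had a low class and a high class.

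Rpl30l2, the copy of a gene for a protein of the large ribosomal subunit, was read at or near 0 in most rats. It lay between 0 and 0.841 CPM in 120 libraries, with 65 of the 147 listed at 0, and between 54.2 and 152 CPM in 26, with a median of 74.99. One library (E21 number 76) lay between them at 9.93 CPM. The gaps on either side of that library were 2.57 and 2.34 on the log2 scale.

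Rps14-ps7, the pseudogene of a protein of the small subunit, was high in most rats. Its low class of 34 libraries lay between 0 and 10.4 CPM with a median of 1.78. The high class of 113 lay between 23.0 and 232 CPM with a median of 79.2. The gap was 1.08 on the log2 scale, and values within the high class were spread without a second gap of 1.

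Prmt1l1 and Ndufa10l1 divided the rats nearly evenly. Prmt1 is the main enzyme that places asymmetric dimethyl marks on arginine, and its copy lay between 0.610 and 3.88 CPM in 79 libraries and between 10.3 and 43.5 in 68. Ndufa10 is a subunit of respiratory complex I, and its copy lay between 0 and 2.41 CPM in 80 libraries and between 7.38 and 30.2 in 67. The medians of the low and high classes were 2.26 and 16.4 CPM for Prmt1l1 and 0.945 and 14.1 CPM for Ndufa10l1.

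Eef1a1l1, the copy of the factor that brings aminoacyl-tRNA to the ribosome, was the most abundant copy and never near 0. Its low class of 19 libraries lay between 43.7 and 117 CPM with a median of 78.5. Its high class of 128 lay between 236 and 1304 CPM with a median of 503. The gap of 1.01 was close to the minimum set, and the lowest library of the high class (E21 number 5, at 236 CPM) lay 0.43 below the next.

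**Figure D1:**
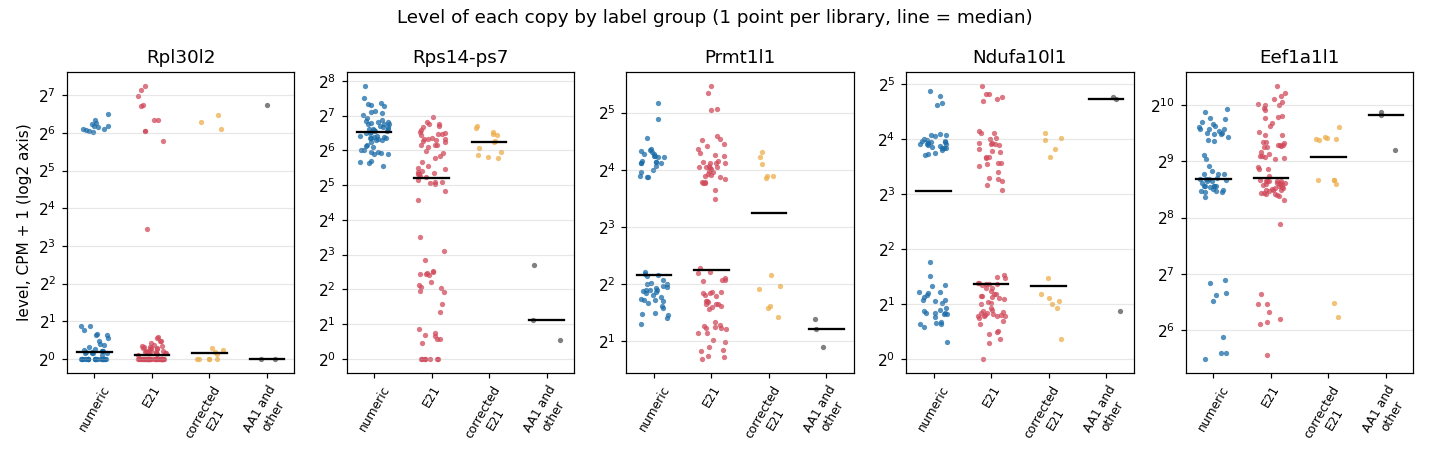
Level of each copy as CPM + 1 on a log2 axis, with 1 point per library and a line at the group median, for 56 numeric, 76 E21, 12 corrected E21 and 3 other libraries. Rps14-ps7 has no numeric library under 45.5 CPM, and the other 4 copies show both classes in each of the numeric, E21 and corrected E21 groups.

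The 12 libraries that had no part in setting the classes, with marker profiles unlike those of the used ones, fell mostly within the same ranges. For Ndufa10l1, 6 were in the low and 6 in the high range, with none between. For Rps14-ps7, 1 was low, at 2.84 CPM, and 11 were high. For Rpl30l2, 10 were low and 1 high, at 62.1 CPM, and 1 lay at 0.956 CPM, just above the low range. For Prmt1l1, 8 were low and 2 high, with 2 at 3.98 CPM, just above the low range. For Eef1a1l1, 2 were low and 9 high, with 1 between at 139 CPM. The single high library for Rpl30l2 had Rpl30 at 44.4 CPM, where the 10 low ones had a median of 131. Median Prmt1 was 79.2 CPM in the 8 low libraries and 52.7 in the 2 high ones, while median Ndufa10 was 157 CPM on both sides.

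Where a copy was read high, its parent was read lower. Median Rpl30 was 146 CPM in the 120 libraries low in Rpl30l2 (range 104 to 273) and 64.02 in the 26 high ones (range 1.27 to 167). In 23 of those 26 libraries Rpl30 lay below every library of the low class. From the low to the high class the copy's median rose by 74.99 CPM, the parent's fell by 82.1 CPM, and the median of their sum differed by -5.39 CPM. The fall of the parent and the rise of the copy were thus of like size.

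The other ribosomal pair and the Prmt1 pair followed the same direction. Median Rps14 was 244 CPM (137 to 390) where Rps14-ps7 was low and 133 CPM (79.6 to 281) where it was high, with 63 of the 113 high libraries below every low one. Here the sum was lower in the high class too, with medians of 250 and 206 CPM. Median Prmt1 was 81.3 CPM (66.6 to 117) where Prmt1l1 was low and 58.1 CPM (29.5 to 91.0) where it was high, with 51 of 68 high libraries below every low one.

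The remaining parents are far more abundant than their copies, and relative to their level their medians fell less than those above. Median Ndufa10 was 148 CPM (115 to 176) where Ndufa10l1 was low and 136 CPM (114 to 173) where it was high, and only 1 of 67 high libraries lay below every low one, so the ranges overlapped nearly fully. Still, the medians differed by -12.2 CPM for the parent and 13.1 CPM for the copy. Median Eef1a1 was 3088 CPM (2570 to 4153) where Eef1a1l1 was low and 2458 CPM (1944 to 4176) where it was high, with 80 of 128 high libraries below every low one. At the median Eef1a1 fell by 631 CPM, more than the 425 CPM by which the copy rose.

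**Figure D2:**
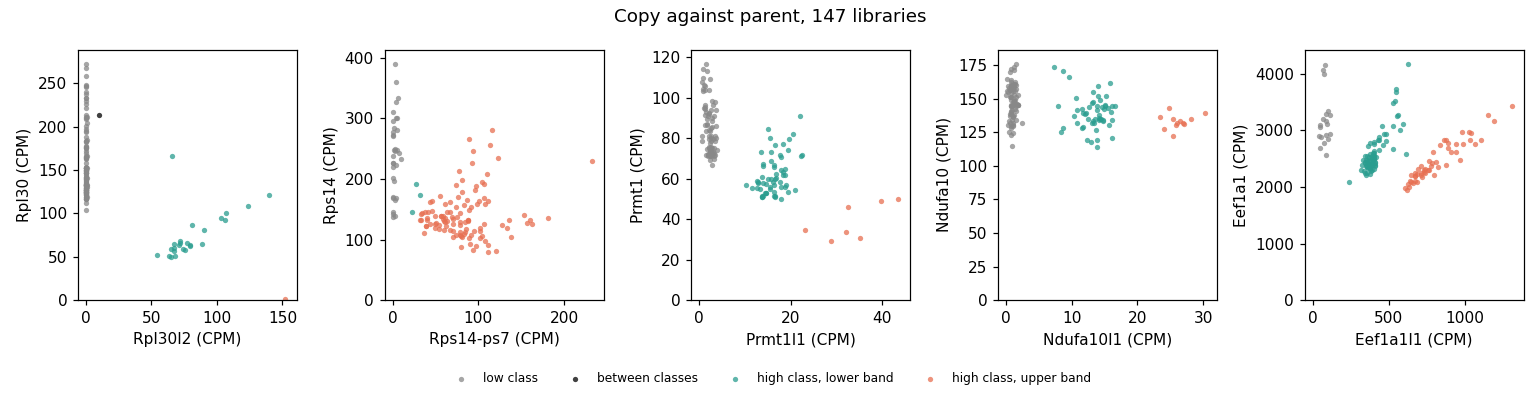
Level of the copy (x axis, CPM) against that of its parent (y axis, CPM) in 147 libraries, colored by the level class of the copy and by the bands of its share described in the text. Parents lie lower where copies lie higher, and within the bands of Eef1a1l1 the points of copy and parent rise together along separate lines.

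Expressed as the copy's share of the expected counts of both genes, a quantity free of library scaling but not scaled by transcript length, the high class of 4 copies held further steps. In the Rpl30 pair the share was 0.450% or less in the low class. It lay between 48.3% and 57.8% in 24 of the 26 high libraries. The exceptions were E21 number 5 at 28.2% and E21 number 57 at 99.2%, where Rpl30l2 was at 152 CPM and Rpl30 at 1.27 CPM. The total of the pair in that library, 153 CPM, lay within the range of the others, so nearly all reads of the pair were assigned to the copy there.

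To describe these steps, the high class of each copy was divided at its widest gap in share, a division made after the values were seen. For Prmt1l1 the 79 low libraries lay between 0.602% and 4.98%, 61 between 15.2% and 27.8%, and 7 between 40.0% and 53.4%, with an empty interval of 12.1 percentage points before the last. For Ndufa10l1 80 libraries lay at 1.80% or less, 55 between 4.09% and 11.8%, and 12 between 14.7% and 17.8%. For Eef1a1l1 19 lay between 1.48% and 3.72%, 76 between 10.2% and 19.1%, and 52 between 22.7% and 28.1%. The empty interval before the last band was narrower in these pairs, 2.86 points for Ndufa10l1 and 3.58 points for Eef1a1l1. For Eef1a1l1 the highest library of the lower band, at 19.1%, lay 2.65 points above the next one. The median share of the upper band was 2.20 times that of the lower for Prmt1l1, 1.84 times for Ndufa10l1 and 1.83 times for Eef1a1l1.

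Medians of the parents were lower from band to band. A division by share favours this, since the parent is part of the share. Median Prmt1 was 81.3, 58.95 and 34.8 CPM from the low class to the upper band, and the 7 libraries of the upper band (29.5 to 50.1 CPM) lay nearly all below the 61 of the lower band (49.8 to 91.0 CPM). Median Ndufa10 was 148, 140 and 133 CPM, with overlapping ranges. Median Eef1a1 was 3088, 2501 and 2363 CPM, again with overlapping ranges (2083 to 4176 CPM in the lower band and 1944 to 3435 in the upper). For Rps14-ps7 the share ran from 12.6% to 59.7% through the high class, and its widest gap, 3.40 points, set apart only the lowest 3 libraries. That gap was of like width to those of Ndufa10l1 and Eef1a1l1, so the steps of these copies do not rest on a wider gap.

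**Figure D3:**
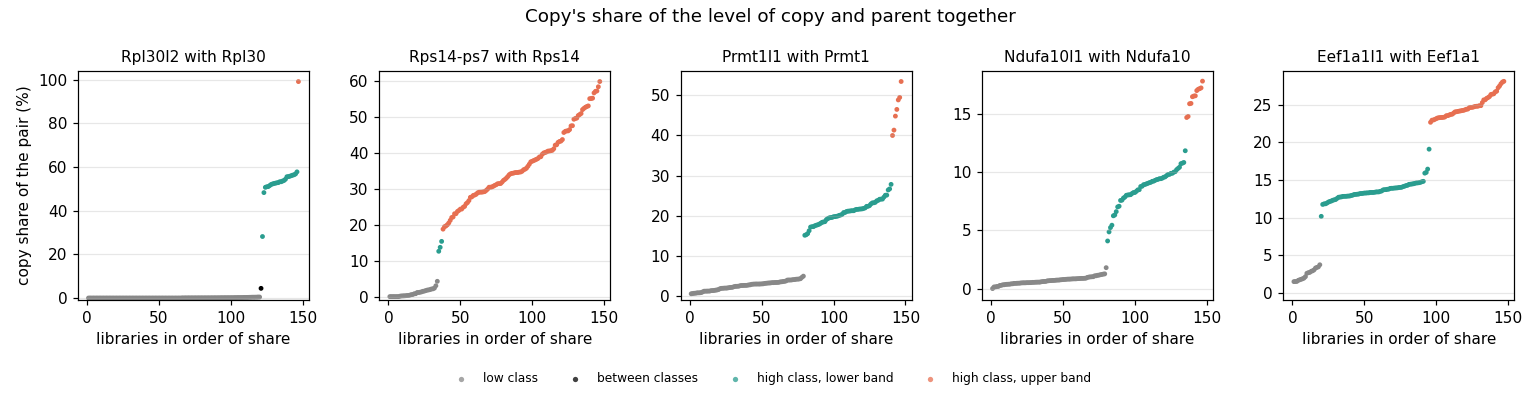
Share of the copy in the expected counts of copy and parent together (y axis, percent), with the 147 libraries of each pair in order of share (x axis). Prmt1l1, Ndufa10l1 and Eef1a1l1 fall into 3 bands of share, with widest gaps within the high class of 12.1, 2.86 and 3.58 points. Rpl30l2 has 24 libraries between 48.3% and 57.8% and 1 at 99.2%. Rps14-ps7 runs from 12.6% to 59.7% above its low class, with a widest gap of 3.40 points.

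Most of the 12 libraries outside the selection fell within the same levels of share. All levels were met for Eef1a1l1, while no such library lay in the upper band of Rpl30l2, Prmt1l1 or Ndufa10l1. For Eef1a1l1, 2 lay in the low class, 3 in the lower band, 6 in the upper band and 1 elsewhere, at 4.35%. For Ndufa10l1, 6 were low and 6 in the lower band. For Prmt1l1, 9 were low, 2 in the lower band and 1 elsewhere, at 5.27%. For Rpl30l2, 10 were low and 1 lay at 58.3%, just above the lower band, with 1 at 0.629%.

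Individual libraries that lay off the levels for one pair did not do so for every pair. E21 number 76, between classes for Rpl30l2 (a share of 4.44%), was also the lowest of the high class for Ndufa10l1 (4.09%), yet lay within the upper band of Eef1a1l1 (24.1%) and low for Prmt1l1 (1.39%). E21 number 5, at 28.2% for Rpl30l2, was also the lowest of the high class for Eef1a1l1 (10.2%) and within the low class of Ndufa10l1 (0.554%) and Prmt1l1 (0.744%). E21 number 57, the library with almost no Rpl30, lay within the common ranges of the other 4 pairs. Totals in these 3 libraries were 17.6, 21.6 and 24.1 M counts for numbers 76, 5 and 57, within the range of the rest.

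Across all 147 libraries the Spearman correlation of copy and parent was -0.47 for Rpl30l2, -0.44 for Rps14-ps7, -0.72 for Prmt1l1, -0.36 for Ndufa10l1 and -0.11 for Eef1a1l1. These values span the classes and are descriptions, since both genes of a pair come from the same library and share reads. Within bands of share the values were positive or near 0, outside the low classes. The correlation was 0.73 in the lower band (n = 76) and 0.94 in the upper band (n = 52) of Eef1a1l1, and 0.71 in the lower band of Rpl30l2 (n = 25). For Prmt1l1 it was 0.35 in the lower band (n = 61) and 0.64 in the upper (n = 7). It was near 0 in the upper band of Rps14-ps7 (0.0029, n = 110) and in the lower (0.045, n = 55) and upper (0.091, n = 12) bands of Ndufa10l1. A band limits the ratio of the genes and so favours a positive value. Within the low class it was -0.44 for Prmt1l1 (n = 79), -0.093 for Rpl30l2 (n = 120), -0.021 for Ndufa10l1 (n = 80), 0.19 for Eef1a1l1 (n = 19) and 0.38 for Rps14-ps7 (n = 34).

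Adding copy and parent gave a steadier quantity than either gene. The SD of log2(CPM + 1) over 147 libraries was 2.39 for Rpl30l2, 0.73 for Rpl30 and 0.33 for their sum. Without E21 number 57 the SD of Rpl30 was 0.54 and that of the sum 0.33. The SD was 2.17, 0.49 and 0.34 for Rps14-ps7, Rps14 and their sum, and 1.34, 0.36 and 0.22 for Prmt1l1, Prmt1 and theirs. It changed little from parent to sum in the other two pairs, from 0.13 to 0.12 for Ndufa10 and from 0.22 to 0.21 for Eef1a1. The median SD of the 15327 genes was 0.24. By SD, Rpl30l2 ranked 5, Rps14-ps7 10, Ndufa10l1 21, Prmt1l1 38 and Eef1a1l1 64 from the top. Among the parents Rpl30 ranked 242 and Rps14 821, while Ndufa10, at 14301, was among the steadiest genes.

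In linear terms the highest Rpl30 was 214 times the lowest, and the highest sum of the pair 2.61 times the lowest. The coefficient of variation fell from 35.0% for Rpl30 to 25.0% for the sum, from 37.9% to 25.4% in the Rps14 pair, from 24.2% to 15.6% in the Prmt1 pair, from 9.21% to 8.27% in the Ndufa10 pair and from 16.6% to 15.4% in the Eef1a1 pair.

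**Figure D4:**
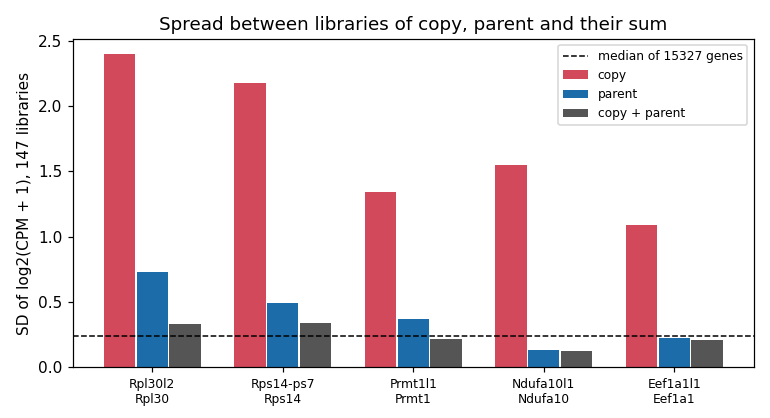
SD of log2(CPM + 1) over 147 libraries for each copy, its parent and the sum of their CPM, with a dashed line at the median of all genes tested (0.24). Sums lie at 0.12 to 0.34, below the parent in every pair and far below the copy.

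The spread left in the sums of translation genes went with ribosomal protein mRNA as a whole. The 77 other cytosolic ribosomal protein genes together had between 12899 and 31001 CPM. The Spearman correlation with that total was 0.90 for the sum of the Rpl30 pair and 0.53 for Rpl30 alone. It was 0.77 for the sum of the Rps14 pair and 0.61 for Rps14 alone, and 0.84 for the sum of the Eef1a1 pair and 0.61 for Eef1a1 alone. For the Ndufa10 pair it was 0.30 for the sum and 0.38 for the parent. Among the 5 pairs, the sum followed the ribosomal total more closely than the parent in 4, all but that of Ndufa10, over the same 147 libraries. Depth and RNA quality, which all these genes share within a library, were not tested as sources of this relation.

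The form of the rat identifier, the one label that divides the libraries, went with the Rps14 pair and with no other pair past the test. Rps14-ps7 lay between 45.5 and 232 CPM (median 91.4) in the 56 numeric libraries, between 0 and 123 (median 35.7) in the 76 E21 libraries, and between 53.9 and 104 (median 75.3) in the 12 corrected E21 libraries. No numeric and no corrected E21 library was in the low class, while 31 of 76 E21 libraries were. Of the remaining 3 libraries, those of AA1 identifiers (0.456 and 5.48 CPM) and that corrected to another form (1.18 CPM) were all low.

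In limma, with Benjamini-Hochberg adjustment over 15327 genes, Rps14-ps7 differed by -2.45 on the log2(CPM + 1) scale in E21 against numeric libraries (SE 0.31, adjusted p = 1.03e-09). Rps14 rose by 0.24 (SE 0.083, limma adjusted p = 0.0146), from a mean of 147 ± 48.4 CPM (SD, n = 56) to 178 ± 72.7 CPM (SD, n = 76), with overlapping groups. Thus 2 of 10 members passed, against 38.8% of all genes tested, 12.3% higher and 26.6% lower. The contrast was known for Rps14-ps7 when the genes were chosen. Of all genes called, 31.6% were higher in E21, against 49.9% under median-of-ratios scaling and 55.04% after quantile normalization, while the directions of both members held.

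Markers of cortical projection neurons moved with the same label, 7 of 8 lower in E21, and none was at a median of 0. The median of their summed level was 360 CPM in numeric (42.5 to 1314), 149 in E21 (26.3 to 1486) and 637 in corrected E21 libraries (47.97 to 1010). With the score of these markers as a covariate the change of Rps14-ps7 was -2.53 (SE 0.33, limma adjusted p = 8.02e-09). That of Rps14 was 0.21 (SE 0.089) and no longer passed (limma adjusted p = 0.0514). Of 9 medium spiny neuron markers 6 were higher in E21, and their part in the result was not tested. In bulk tissue, fewer cells of a type and less RNA per cell cannot be told apart.

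Within the E21 libraries the parent was lower where the copy was high, as in the pooled data. Median Rps14 was 246 CPM in the 31 E21 libraries low in Rps14-ps7 and 131 CPM in the 45 high ones, the latter close to the 134 CPM of the numeric libraries. The copy's median in those 45 was 67.4 CPM, with a range of 23.0 to 123, which overlaps that of the numeric libraries. The correlation of Rps14-ps7 and Rps14 was -0.70 in the E21 group and -0.042 in the numeric group, which holds 1 class only. Both genes also went with ribosomal protein mRNA outside the pair. In the E21 group the Spearman correlation with the total of the 77 other ribosomal protein genes was -0.40 for Rps14-ps7 and 0.69 for Rps14. How much of the difference in Rps14 between the classes goes with that total was not tested.

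The remaining 8 members did not pass in this comparison. Among copies the changes were -0.47 for Rpl30l2 (SE 0.41), -0.083 for Prmt1l1 (SE 0.23), -0.30 for Ndufa10l1 (SE 0.27) and 0.18 for Eef1a1l1 (SE 0.19). Among parents the change was 0.21 for Rpl30 (SE 0.13), 0.058 for Prmt1 (SE 0.063), 0.0067 for Ndufa10 (SE 0.024) and 0.038 for Eef1a1 (SE 0.040). The sign of Eef1a1 turned after quantile normalization (-0.063), and those of Prmt1l1 (0.023) and Ndufa10 (-0.0090) turned with every library of the table in the fit. The 95% interval for Ndufa10 ran from -0.040 to 0.053, whereas that for Rpl30l2 was wide, from -1.29 to 0.34.

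Corrected E21 libraries were compared with the 76 E21 libraries, which they share with the comparison above. Rps14-ps7 was 2.15 higher in them (SE 0.54, limma adjusted p = 0.00326), and no other member passed, so 1 of 10 was called against 12.5% of all genes, 9.34% higher and 3.2% lower. The change of Rps14 was -0.089 (SE 0.15, limma adjusted p = 0.734). Of all genes called, 74.5% were higher, 55.2% under median-of-ratios scaling and 51.7% after quantile normalization. Cortical markers moved here too, 7 of 8 higher, and with their score as a covariate Rps14-ps7 was 2.27 higher (SE 0.57, limma adjusted p = 0.0136). The correction of an identifier and a batch of preparation cannot be told apart.

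Libraries per class were also counted. The low class of Rps14-ps7 held 40.8% of E21 and 0% of numeric libraries (0 of 56; Fisher's exact test, two-sided, p = 1.72e-09, adjusted over 10 tests 1.72e-08). That contrast was known for this copy when it was chosen, and the classes rest on the values used to choose it. The p value is therefore not independent support. The same low class held 0 of 12 corrected E21 libraries (Fisher's exact test, p = 0.00669, adjusted 0.0334). This test uses the same classes and the same E21 libraries, so its p value is not independent support either. With classes split at 1 CPM instead, the difference of corrected E21 from E21 libraries was -18.4 percentage points and did not pass (Fisher's exact test, adjusted p = 0.536). For the other copies the low class held 85.5% of E21 and 78.6% of numeric libraries for Rpl30l2, 51.3% and 55.4% for Prmt1l1, 44 of 76 and 28 of 56 libraries for Ndufa10l1, and 10.5% and 16.1% for Eef1a1l1. None of these differences passed, with adjusted p from 0.721 to 1 over both comparisons in Fisher's exact tests.

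No pair of copies passed a test of whether their low classes fell in the same libraries. In Fisher's exact tests of the 10 pairs of copies, unadjusted p lay between 0.200 and 1 and adjusted p between 0.869 and 1. The lowest was that of Rpl30l2 and Eef1a1l1, where 18 of 19 libraries low in Eef1a1l1 were also low in Rpl30l2, against 120 of 147 in all. Low in Prmt1l1 and Ndufa10l1 together were 45 libraries, with 34 low in the former alone and 35 in the latter alone. By number of copies in the low class, 4 libraries had none, 30 had 1, 49 had 2, 52 had 3 and 12 had 4.

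The genes whose levels were most like those of a copy were taken from all genes tested, by Spearman correlation over 147 libraries. For Prmt1l1 all 6 genes with the highest and lowest correlation lie on chromosome 1, where its parent Prmt1 is, and none on chromosome 14, where the copy itself is. Aldh16a1, of the aldehyde dehydrogenase family and 171 kb from the start of Prmt1, had a correlation of 0.64. Zfp473, a zinc finger gene 226 kb away on the other side, had 0.58, and Cpt1c, a brain form of carnitine palmitoyltransferase 11.7 kb away, 0.44. At the low end were Fuz, a planar polarity gene 89.8 kb away, with -0.56, Siglec5, a sialic acid binding receptor 1701 kb away, with -0.47, and Bcl2l12, of the Bcl2 family and 11.9 kb away, with -0.45. In the numeric libraries alone Aldh16a1 had 0.60 and in the E21 libraries alone 0.65. The same genes had the opposite sign with Prmt1, -0.38 for Aldh16a1 and 0.79 for Fuz. Counts of Fuz, too, were seldom whole (3 of 145, 2.07%), while 90 of 146 were whole for Aldh16a1 (61.6%).

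Medians of Aldh16a1 and Fuz changed from band to band of the copy's share, while that of Zfp473 differed little between the lower and upper bands. The upper band held 7 libraries. Median Aldh16a1 was 15.9 CPM (7.19 to 23.7) in the low class of Prmt1l1, 19.6 (14.7 to 27.9) in the lower band and 23.4 (16.5 to 26.6) in the upper. Median Fuz was 18.9, 16.1 and 14.6 CPM in the same order, while median Zfp473 was 1.71, 2.65 and 2.68. The ranges of neighbouring bands overlapped for all 3 genes. By the likeness that chose them these values are descriptions.

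For Eef1a1l1 on chromosome X the most alike gene was Gsta4, a glutathione transferase on chromosome 8 that lies 278 kb from its parent Eef1a1, with a correlation of 0.66 (0.68 in numeric and 0.63 in E21 libraries). Its correlation with Eef1a1 was 0.12. Median Gsta4 was 12.8, 14.4 and 18.2 CPM from the low class of the copy to its upper band. Slc17a5, the sialic acid transporter of lysosomes and the nearest tested gene after Eef1a1 at 84.0 kb, had 0.39. Next after Gsta4 came Ran, a GTPase of nuclear transport (0.55), and Psma7, a proteasome subunit (0.53), on other chromosomes. At the low end were Dennd4a, Tmem178b and Trip12, from -0.49 to -0.48, of which Dennd4a is on the chromosome of Eef1a1 but 14008 kb away.

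For Ndufa10l1 the largest value of either sign was that of Otos, a gene named for its product in the inner ear, at -0.41. It lies 178 kb from the parent Ndufa10, and its median was 1.28, 1.02 and 0.943 CPM from the low class to the upper band. The other 5 genes were Zfp35 (0.40), Clcf1 (0.38), the long noncoding RNA LOC134482118 (0.37), Trappc6a (-0.34) and P2ry13 (-0.34), all on other chromosomes than the parent and the copy.

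A window of 1 Mb on each side was set after these values were seen. For these 3 copies its top genes around the parents are those already named, so their rank restates the above. The most alike gene within 1 Mb of the parent ranked 1 of 15325 by absolute correlation for Prmt1l1, Ndufa10l1 and Eef1a1l1. Around Prmt1, 10 of 79 genes had an absolute correlation of at least 0.3 with Prmt1l1 (12.7%), against 0.137% of all genes. Around Ndufa10 it was 1 of 20 with Ndufa10l1 (5%), against 0.731%, and that gene was Otos. With Eef1a1l1 it was 3 of 8 around Eef1a1 (37.5%) and 2 of 6 around the copy itself (33.3%), both near the 30.8% of all genes. Around Prmt1l1 itself 2 genes were tested, Cobl (0.055) and Grb10 (-0.0079), and around Ndufa10l1 none. Around Eef1a1l1 the largest of 6 was Eola2 (0.36), which ranked 2689. Correlations for the nearest genes of Ndufa10l1, all over 1 Mb away, lay between -0.13 and 0.083.

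**Figure D5:**
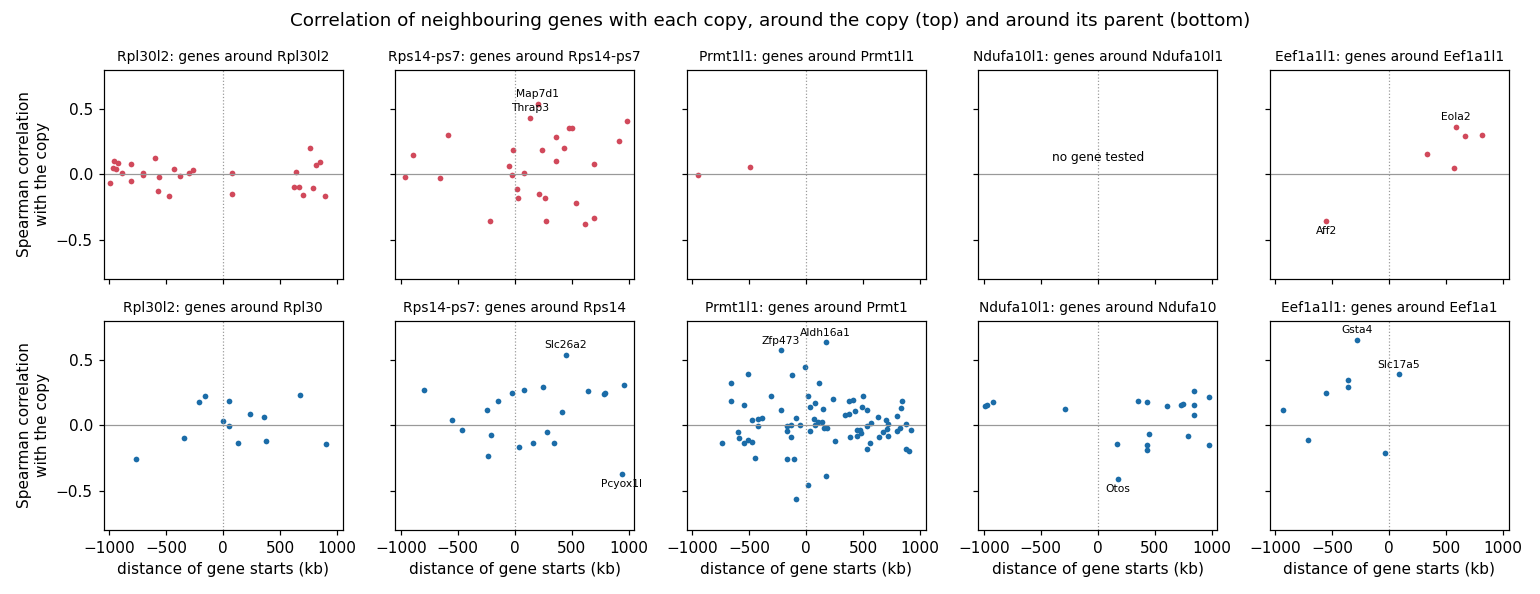
Spearman correlation with each copy (y axis) of every gene tested within 1 Mb, by the distance between gene starts in kb (x axis), around the copy in the top row and around its parent in the bottom row. The largest values around 3 parents are those of Aldh16a1 (0.64) near Prmt1, Otos (-0.41) near Ndufa10 and Gsta4 (0.66) near Eef1a1. Values larger in size than that of Otos also lie near the Rps14 pair, among them Map7d1 (0.54) and Slc26a2 (0.54), and near Prmt1, as Fuz (-0.56). No gene within 1 Mb of Rpl30l2 or Rpl30 passes 0.26 in size.

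Rpl30l2 had no close companion. Its highest correlation was 0.31, with Rpl35, another protein gene of the large subunit, followed by Ndufb1 (0.30) and Ltbr (0.29). Its lowest was -0.31, with Edc3, followed by Spin1 (-0.31) and Cyp4x1 (-0.30). None of these genes lies on the chromosome of the copy or of Rpl30, and 6 of 15325 genes reached 0.3 in size. In the E21 libraries alone Rpl35 had 0.085. Near the copy Fstl4 had -0.15 and C10h5orf15 0.031, and near Rpl30 Matn2 had 0.23 and Erich5 0.032.

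For Rps14-ps7, 4 of the 6 companions have symbols of the form of a gene copy, and LOC134481478 and Slc35a4, a solute carrier gene, do not. The highest values were those of Rplp2l2, named as a copy of an acidic ribosomal stalk protein gene (0.89), LOC134481478 (0.83) and Rpl35al8 (0.80), on chromosomes 15, 13 and 6. Rplp2l2 kept 0.87 within the numeric libraries and 0.83 within the E21 libraries. Its level was 0.224 to 4.93 CPM in the low class of Rps14-ps7, with a median of 1.34, and 1.25 to 79.5 CPM in the 110 libraries of the upper band, with a median of 13.3, so the ranges overlapped. At the low end were Rps12l2 (-0.69), Cox7a2l2 (-0.67) and Slc35a4 (-0.66), each weaker in the numeric libraries, at -0.16, -0.15 and -0.37. Among values above 0 and under 1000 counts, between 0% (Rps12l2) and 5.11% (LOC134481478) were whole over these 6 genes, with 1.67% for Slc35a4.

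Genes next to the Rps14 pair were less alike. Near Rps14-ps7 the correlation was 0.19 for Oscp1 and -0.18 for Stk40, and near Rps14 it was 0.27 for Tcof1, 0.25 for Ndst1 and -0.16 for Cd74. Within 1 Mb, 35.7% of genes around the copy and 14.3% around the parent reached 0.3 in size, against 23.0% of all genes. The largest near the copy, Map7d1 (0.54), had 0.73 in E21 and -0.29 in numeric libraries. The largest near the parent, Slc26a2 (0.54), had 0.60 in E21 and -0.0066 in numeric libraries.

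The 5 copies stood against 351 pairs of tested genes in which one symbol is the other plus l and a number or plus -ps and a number. This set includes relatives that are not retrocopies and unrelated genes with like symbols, and parent stands below for the gene with the shorter symbol. Of its other 346 pairs none had separated levels by the same rule, since the rule chose the members. The widest gaps after those of the 5 members were in Cbr1l1 (0.93 on the log2 scale), Gpbp1l2 (0.90), Ppp2r5al1 (0.70), Ndrg3-ps1 (0.63) and Rps10l6 (0.46), named after the members by the same measure. The correlation with the parent was positive for Cbr1l1 (0.55) and -0.56 for Ndrg3-ps1. In the latter pair the SD fell from 0.59 for Ndrg3 to 0.29 for the sum. Over the 346 pairs the median correlation of copy and parent was 0.18, 102 were negative, and 26 were below -0.35, as 4 of the 5 members were. The sum varied less than the parent in 279 of 346. Among 34 pairs with a ribosomal protein gene as parent, 9 had a negative correlation and 1 lay below -0.35.

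Families of the parents were read in the same fits. In E21 against numeric libraries, limma called 11 of 79 cytosolic ribosomal protein genes higher and 7 lower, with a median change of 0.0022, against -0.029 over all genes, of which 12.3% were called higher and 26.6% lower. The smallest p values were those of Rpl37 (1.12, SE 0.16, limma adjusted p = 5.65e-08), Rpl21 (-0.24) and Rpl36a (-0.23). Of 37 nuclear complex I subunits 7 were higher and 1 lower, led by Ndufs7 (0.13), Ndufa7 (0.17) and Ndufb6 (0.18). Of 9 arginine methyltransferases 3 were lower, namely Prmt5 (-0.087), Prmt8 (-0.081) and Prmt7 (-0.081). Of 6 elongation factors Eef1a2, the form of neurons and muscle, was lower (-0.10).

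In corrected E21 against E21 libraries, where 12.5% of all genes were called, 1 of 79 ribosomal protein genes passed, Rpl37 at -1.08 (SE 0.29, limma adjusted p = 0.0062). Of the methyltransferases Prmt8, a form largely of brain, was higher (0.13, SE 0.041, limma adjusted p = 0.0202). No complex I subunit and no elongation factor was called in limma, with 4 of 37 and 1 of 6 at an unadjusted p under 0.05. The smallest p values among them were those of Ndufa5 (0.12), Ndufa6 (-0.19) and Ndufs7 (-0.12), and of Eef1a2 (0.11).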

How the data were processed

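The authors deposited, per the submitters' processing notes made with kallisto 0.48, 1 table of gene values that their range shows to be log2 of expected counts plus 1, unscaled for depth. The annotation they used is not given in those notes. Values were converted to linear expected counts, brought to a total of 1000000 in each library (CPM) and analysed as log2(CPM + 1). Libraries with Drd1 of at least 100 CPM were used. Python 3.11.15, scipy 1.17.1 and limma 3.58.1 in R 4.3.3 served, with an intensity trend, 3 label groups in 1 fit and the genes that averaged 1 CPM or more, at an adjusted p of 0.05, tested on simulated data. The labels name no replicates, so p-values measure the spread between libraries. Named genes were the members, the 3 highest and 3 lowest correlations per copy, 2 neighbours on each side of copy and parent, the 3 smallest p per list and the 5 widest gaps among other copies. Members and lists were chosen with earlier results of these data known. A comparison of proteins was not run. Alternatives covered scaling, pseudocount, filters, libraries, a marker covariate and a permutation test.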

Additional observations from a re-analysis of the deposited data

How the results depend on the processing

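Of 160 values for single members under other settings, 150 kept their direction and their side of the threshold. The sign turned in 9, all of members that passed in neither setting. In E21 against numeric libraries these were Eef1a1 after quantile normalization (-0.063) and, with all libraries, Prmt1l1 (0.023) and Ndufa10 (-0.0090). In corrected E21 against E21 they were Prmt1 under median-of-ratios scaling (-0.030), quantile normalization (-0.027) and all libraries (-0.0023), Ndufa10l1 under the last 2 (-0.056 and -0.0022), and Eef1a1 after quantile normalization (0.0096). The remaining one, Rps14 in E21 against numeric libraries, with the cortical marker score as a covariate was 0.21 (limma adjusted p = 0.0514), leaving 1 of 10 members called. Its limma adjusted p lay between 0.00204 and 0.0313 in the other settings, and the permutation test of 100000 resamples gave p = 0.00661. For Rps14-ps7 the permutation p was 1e-05, the smallest it can give, and its log2 difference ran from -2.94 to -2.40 over all settings. In corrected E21 against E21 libraries 764 genes were called with all libraries and 1247 with only those groups in the fit, against 1923, with Rps14-ps7 called in each. With every library of the table Eef1a1l1 had 0 libraries in a separated low class, since 1 library outside the selection, at 139 CPM, lies within its gap. With classes split at 1 CPM the share of low libraries of Rps14-ps7 in corrected E21 minus E21 was -18.4 percentage points and did not pass (Fisher's exact test, adjusted p = 0.536), with fewer libraries counted as low. That split also turned the sign for Prmt1l1 in E21 minus numeric (9.21 points, adjusted p = 0.0821) and for Ndufa10l1 in corrected E21 minus E21 (-5.26 points, adjusted p = 1), neither past the threshold in Fisher's exact test. The cause was not tested. Another 99 values of counts, spreads and shares kept their call or stayed within 1.5 times. Depth limits the low classes: a level of 1 CPM is near 15 to 61 expected counts.

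No paired analysis was possible because the labels give no replicate numbers.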

Other observations

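In no comparison were the 3 libraries of other identifiers. Both AA1 libraries had Rpl30l2 listed at 0 and Prmt1l1 at 0.869 and 1.33 CPM, low for both copies, with Ndufa10l1 at 26.0 and 25.5 CPM and Eef1a1l1 at 906 and 940 CPM, high for both. Their parents lay at 183 and 195 CPM for Rpl30 and at 132 and 135 CPM for Ndufa10. The library corrected to another form had Rpl30l2 at 106 and Rpl30 at 93.0 CPM, Prmt1l1 at 1.60, Ndufa10l1 at 0.836 and Eef1a1l1 at 590 CPM.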
